A study of Arabidopsis thaliana with 6 samples.

Results

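BHLH101 (AT5G04150) and PYE (POPEYE, AT3G47640) are both basic helix-loop-helix (bHLH) transcription factors of the iron deficiency response of Arabidopsis thaliana. They were chosen by symbol among the probe sets that name exactly 1 gene, and they are 2 of 13356 genes measured in that way. Each had 1 such probe set, so no choice among probe sets was needed. Levels were measured on 6 Affymetrix ATH1 arrays, which report each transcript through a set of short probes, in rosettes of cat2-2, a mutant of a catalase gene with Col-0 as its background. Treated plants were 22 days old and were sampled in 3 biological replicates after 24 h of photorespiratory conditions. Untreated plants were 21 days old and gave 3 biological replicates at 0 h. For the treatment, the breathable tape around the plates was exchanged for parafilm, which restricts gas exchange, and long days were exchanged for continuous light. All plants carried the cat2-2 mutation and grew on agar with sucrose, and each replicate pooled many rosettes. Sealing, light regime and a day of age changed together, so their effects cannot be told apart, and no wild type was analysed here.

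Plants short of iron switch on a cascade of bHLH factors. BHLH101 belongs to subgroup Ib, whose proteins pair with the factor FIT to activate genes of iron uptake in the root, and whose transcripts are known to accumulate in iron-starved roots and leaves. PYE belongs to subgroup IVb, was first described in the root pericycle, and represses genes that move and store iron. Transcription of subgroup Ib genes and of PYE is known to be raised by factors of subgroup IVc (bHLH34, bHLH104, ILR3 and bHLH115) together with bHLH121, and the ubiquitin ligase BTS is known to remove subgroup IVc proteins. A catalase mutant is of interest here because iron and hydrogen peroxide react to form damaging radicals.

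BHLH101 was lower in treated rosettes, while PYE differed by no more than its arrays varied. The RMA log2 level of BHLH101 was 7.18, 6.86 and 6.67 in treated replicates 1, 2 and 3, against 7.89, 7.36 and 7.89 in untreated replicates 1, 2 and 3. All treated arrays lay below all untreated arrays, with a gap of 0.19 between the highest treated and the lowest untreated array, and untreated replicate 2 stood apart from the other untreated arrays on the low side. The group means were 6.90 ± 0.25 in treated and 7.71 ± 0.30 in untreated rosettes (SD, n = 3 each). BHLH101 thus fell by 0.81 on the log2 scale (SE 0.16; 95% confidence interval -1.15 to -0.47), or 1.75-fold, with adjusted p = 0.00127 (limma, with p-values adjusted by Benjamini and Hochberg's method across the 22746 probe sets tested). Of all genes, 20.6% were called lower at the same threshold of 0.05, and 25.2% had all treated arrays below all untreated arrays.

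The decrease of BHLH101 was sizeable beside that of other genes, and so was its scatter. A share of 4.82% of the 13356 genes had a difference at or below it, and among the genes called lower 23.4% fell at least as far. The 9 differences between a treated and an untreated array all had the same sign and ran from -1.22 to -0.19. Within groups, the levels of BHLH101 spanned 0.50 in treated and 0.53 in untreated arrays, and its pooled SD of 0.28 lay at the 98.2nd percentile of probe sets, where the median gene had 0.10. Without the moderation by which limma borrows the spread of other probe sets, the same difference had adjusted p = 0.0662 (limma's linear model). An exact permutation test of BHLH101 alone gave two-sided p = 0.10, the smallest that 3 against 3 arrays allow.

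PYE had RMA log2 levels of 6.76, 6.74 and 6.57 in treated replicates 1, 2 and 3, against 6.71, 6.73 and 6.89 in untreated replicates 1, 2 and 3. The groups overlapped, and the lowest and the highest array, both replicate 3, were the only ones that stood off the rest. The means were 6.69 ± 0.10 in treated and 6.78 ± 0.10 in untreated rosettes (SD, n = 3 each). The difference was -0.09 on the log2 scale (SE 0.09; limma, adjusted p = 0.477; exact permutation p = 0.60), with a 95% confidence interval of -0.28 to 0.10. The interval leaves room for a small change in either direction, and 65.8% of genes had a difference at least as large in size. The arrays of PYE scattered about as much as those of the median gene, with a pooled SD of 0.10.

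**Figure D1:**
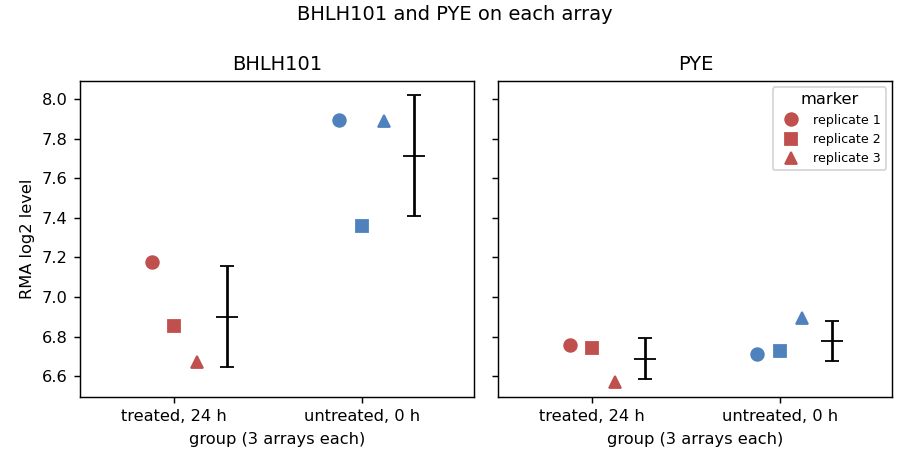
RMA log2 level (vertical axis) of BHLH101 and PYE on each of the 3 treated and 3 untreated arrays, with marker shape for the replicate number, and the group mean ± SD in black. The treated arrays of BHLH101 all lie below its untreated arrays, at 6.67 to 7.18 against 7.36 to 7.89, while those of PYE overlap.

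Whether the genes changed unequally was tested on the difference between BHLH101 and PYE within each array, which cancels any scaling of a whole array. That difference was 0.42, 0.11 and 0.10 log2 units in treated replicates 1, 2 and 3, against 1.18, 0.63 and 0.99 in untreated replicates 1, 2 and 3. Every treated array was below every untreated array. The change of BHLH101 minus that of PYE was -0.72 on the log2 scale, with an exact two-sided permutation p of 0.10, the smallest this design allows, so the test cannot pass 0.05. These values compare changes, since the brightness of different probe sets cannot be set against each other.

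The brightness of both probe sets was moderate. The treated mean of BHLH101 lay at the 59.1st percentile of all probe sets and its untreated mean at the 70.9th. For PYE the treated mean lay at the 56.0th percentile and the untreated mean at the 56.9th. No detection calls were used here, so whether these levels, or those of the other genes given below, are above background was not tested.

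**Figure D2:**
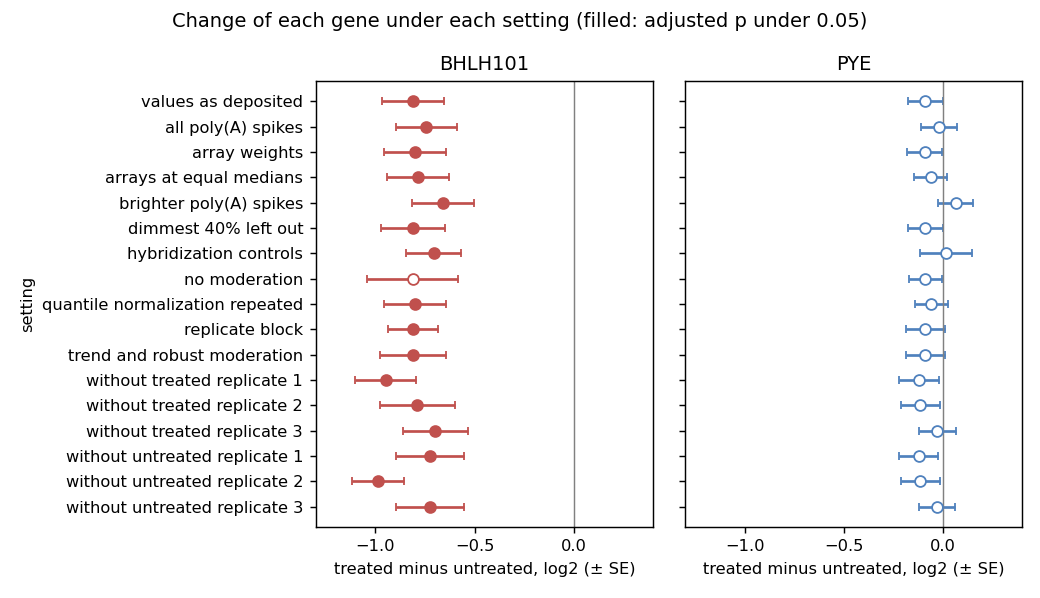
Treated minus untreated difference (horizontal axis, log2, ± SE) of BHLH101 and PYE for the values as deposited and under each other setting (vertical axis), with filled points where the adjusted p is under 0.05. BHLH101 stays between -0.99 and -0.66 and has a filled point in each setting except the fit without moderation; PYE has open points throughout and lies on both sides of 0.

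A list of iron genes by role held 90 loci, of which 13 were measured under an accepted symbol in 6 of 13 roles, BHLH101 and PYE among them. Of the other 11, 5 rose, 2 fell and 4 did not pass (limma, adjusted p under 0.05), against 17.0% higher and 20.6% lower among all genes. The share called in either direction was 63.6%, where it was 37.7% over all genes, and the median difference was 0.23 on the log2 scale, against -0.01 over all genes. The share called depends on brightness, and most of the 11 are bright. Without the dimmest 40% of probe sets, 8462 of 13647 were called, against 9479 of 22746 with all of them. That filter removes F6'H1 and NAI1, and 6 of the remaining iron genes were called. With members taken by locus alone, 6 of 23 rose and 4 fell, a share of 43.5% with a median of 0.08, which is near that of all genes. Of the 11 genes with a symbol, the count called ranged from 3 to 5 when 1 array was left out, and was 3 without treated replicate 2. With the arrays anchored on the 13 brighter poly(A) spikes, which shifts the median of all probe sets to 0.15 from -0.01, 8 of the 11 were higher and 1 lower, and 7394 of 10717 called probe sets were higher, against 4420 of 9479 as deposited. The other subgroup Ib genes, FIT, BTS, the iron uptake genes and the ferritins are not analysed here.

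Among the upstream regulators, 1 of the 4 subgroup IVc genes rose, 1 fell and 2 did not pass. Of all genes, 17.0% were called higher and 20.6% lower. bHLH104 rose 1.39-fold in treated rosettes. Its log2 levels were 8.66, 8.72 and 8.58 in treated replicates 1, 2 and 3, against 8.29, 8.01 and 8.24 in untreated replicates 1, 2 and 3, with no overlap (log2 0.47 ± 0.09 SE; limma, adjusted p = 0.00132). It was called higher in every setting run, at log2 0.39 to 0.62. bHLH115 stood on the other side, at 7.56, 7.46 and 7.58 in treated arrays, against 7.78, 7.78 and 7.71 in untreated arrays. It fell by 0.23 on the log2 scale (limma, adjusted p = 0.0299), but the call was lost in 9 of 16 settings, among them equal array medians (adjusted p = 0.0595), each of the 3 anchorings on spikes or hybridization controls (adjusted p = 0.231 to 0.520), and the fits without treated replicate 1 or 2 or untreated replicate 1 or 2.

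The remaining subgroup IVc genes did not pass in the values as deposited, but did under some settings. ILR3, whose protein is known to work with PYE as well as in activation, had levels of 9.55, 9.56 and 9.53 in treated arrays, against 9.43, 9.42 and 9.36 in untreated arrays. These groups did not overlap, as for 47.1% of all genes, and the difference was 0.14 ± 0.07 SE on the log2 scale (limma, adjusted p = 0.152). ILR3 was called higher when anchored on the brighter spikes (log2 0.29; limma, adjusted p = 0.0157) and without moderation (adjusted p = 0.0180). bHLH34 stood at 7.08, 7.13 and 7.13 in treated arrays, against 6.82, 7.11 and 6.74 in untreated arrays, where untreated replicate 2 lay within reach of the treated arrays (log2 0.23; limma, adjusted p = 0.0897; 0.34 and 0.00854 without untreated replicate 2). It was also called higher when anchored on the brighter spikes (log2 0.38; limma, adjusted p = 0.0133) or the hybridization controls (log2 0.33; adjusted p = 0.0479).

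bHLH121, the subgroup IVb relative of PYE that acts with the subgroup IVc factors, had log2 levels of 8.25, 8.37 and 8.24 in treated arrays, against 8.15, 7.88 and 8.03 in untreated arrays. It rose 1.20-fold (log2 0.26 ± 0.09 SE; limma, adjusted p = 0.0330), with no overlap of the groups. Leaving out any 1 array other than untreated replicate 1 ended this call (limma, adjusted p = 0.0534 to 0.124), as did the replicate block (0.0557) and the fit without moderation (0.102). Of the 5 measured genes known to act upstream of both BHLH101 and PYE, 2 rose, 1 fell and 2 did not pass, where 37.7% of all genes were called. Anchored on the brighter spikes, 4 of these 5 were called higher and 0 lower, with 0 lower at an unadjusted p under 0.05 as well (limma). In that setting 7394 of 22746 probe sets were called higher and 3323 lower, against 4420 and 5059 as deposited. The median of all probe sets moved to 0.15 from -0.01. Of all 6 measured genes with a bHLH number in their names, BHLH101 left out, 2 rose and 2 fell, against 17.0% and 20.6% of all genes. Without the dimmest 40% of probe sets, 3 of the same 5 upstream genes were called, as were 8462 of 13647 probe sets. That filter removes the remaining bHLH gene, AT1G22490. The only one of the 6 not described so far is AT1G22490 (bHLH94), which fell by 0.33 on the log2 scale (limma, adjusted p = 0.00595, and 0.0563 to 0.206 when anchored on spikes or hybridization controls). Its probe set was dim, with log2 levels of 4.42 to 4.51 in treated and 4.68 to 4.86 in untreated arrays.

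**Figure D3:**
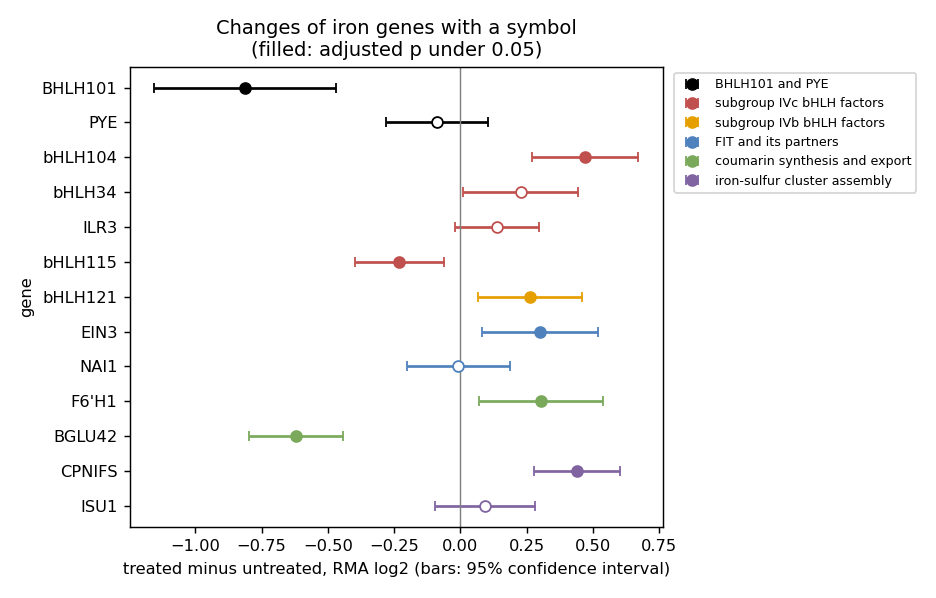
Treated minus untreated difference (horizontal axis, RMA log2, with 95% confidence interval) of BHLH101, PYE and the 11 other iron genes measured under an accepted symbol (vertical axis, coloured by role), with filled points where the adjusted p is under 0.05. BHLH101, at -0.81, lies furthest to the left, bHLH104 lies at 0.47 and PYE at -0.09.

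Outside these regulators, changes were mixed. EIN3, the ethylene factor that is known to bind and stabilise FIT, stood at 9.75 in treated and 9.45 in untreated rosettes (mean log2 levels; difference 0.30; limma, adjusted p = 0.0297). Leaving out treated replicate 2 or 3 or untreated replicate 2 or 3 ended the call of EIN3 (limma, adjusted p = 0.0524 to 0.115), as did repeated quantile normalization (0.0710), the replicate block (0.0503) and the fit without moderation (0.130). NAI1, a bHLH factor known for the formation of endoplasmic reticulum bodies, stood at -0.01 (limma, adjusted p = 0.960). Of the coumarin genes, whose products help roots to mobilise iron, the β-glucosidase gene BGLU42 fell 1.54-fold, with 7.37, 7.57 and 7.40 in treated arrays against 8.07, 8.09 and 8.04 in untreated arrays (limma, adjusted p = 7.16e-05). F6'H1 (AT3G13610), the hydroxylase gene of scopoletin synthesis, stood at 4.99 in treated and 4.69 in untreated rosettes (difference 0.31; limma, adjusted p = 0.0385), and its call was lost when any 1 array other than untreated replicate 2 was left out, and without moderation (adjusted p = 0.167).

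In the assembly of iron-sulfur clusters, CPNIFS, the plastid cysteine desulfurase gene, rose 1.36-fold. Its log2 levels were 8.86, 8.79 and 8.76 in treated arrays, against 8.39, 8.37 and 8.32 in untreated arrays (limma, adjusted p = 0.000476), and it was called in every setting run. ISU1, the mitochondrial scaffold gene, stood at 0.09 (limma, adjusted p = 0.440).

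A further 12 loci of the list carry only a locus tag in the tables used here and are given by tag. Of these, 2 fell, 1 rose and 9 did not pass, so that 25.0% were called, against 37.7% of all genes. AT1G47400 had log2 levels of 7.63, 7.62 and 7.58 in treated arrays, against 8.59, 8.96 and 9.18 in untreated arrays, and fell by 1.30 on the log2 scale, or 2.46-fold (SE 0.13; limma, adjusted p = 7.41e-06). This decrease was larger than that of BHLH101 and was called in every setting run. AT1G74770, a dim probe set with log2 levels of 4.19 to 4.88, fell by 0.44 (limma, adjusted p = 0.00325, and 0.0513 without moderation). AT1G07030 rose by 0.73 (limma, adjusted p = 5.18e-05).

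Because subgroup Ib genes are known from roots as well as leaves, markers of other cell types were read beside BHLH101. Of 6 root and root hair markers, 3 were measured: PYK10, a β-glucosidase gene abundant in roots, fell 1.84-fold (limma, adjusted p = 3.67e-05), while the root hair expansin genes EXPA7 (log2 0.03) and EXPA18 (log2 -0.26) did not pass. Their summed linear signal was 525 to 642 in treated and 950 to 1130 in untreated arrays, and the groups did not overlap, as for BHLH101. That separation is the one of PYK10, since EXPA7 and EXPA18 overlapped between groups. Of 8 leaf photosynthesis markers, 4 were measured, with log2 levels of 12.94 to 14.42. LHCB4.2 (log2 -0.88) and LHCB4.1 (log2 -0.24, a call lost in 6 of 16 settings) fell, while RCA (log2 0.19) and PRK (log2 0.06) did not pass, and the summed signal of the 4 was 51159 to 53429 in treated and 58288 to 58930 in untreated arrays. Of 4 guard cell markers, 3 were measured, of which SPCH fell by 0.49 on the log2 scale (limma, adjusted p = 0.000643) while FMA (log2 0.14) and MUTE (log2 0.11) did not pass. Their summed signal was 123.9 to 127.4 in treated and 121.0 to 134.1 in untreated arrays. No vascular or flower marker was named alone by a probe set under an accepted symbol, which is what measured means for these markers. The part of these shifts in the decrease of BHLH101 was not tested, and in whole rosettes fewer cells of a type and less RNA per cell cannot be told apart.

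The likeness of other genes was measured as the root-mean-square difference between log2 profiles over the 6 arrays, each centred on its own mean, among 1556 other genes with a symbol. The nearest to BHLH101 were AILP1 (0.115 log2 units), the auxin-conjugating enzyme gene GH3.17 (0.125), the pectin methylesterase gene PME61 (0.179), iqd33 of a calmodulin-binding family (0.181) and TTN9 (0.182). Since the step between the groups is part of the profile, genes near BHLH101 are lower in treated rosettes by the way they were chosen. AILP1 had 11.92, 11.76 and 11.56 in treated replicates 1, 2 and 3, against 12.52, 12.23 and 12.51 in untreated replicates 1, 2 and 3, and thus shared with BHLH101 the low untreated replicate 2 and the order of its treated arrays. The choice by likeness over all 6 arrays favours such a shared order too, so it is no separate result. The median gene lay 0.470 from BHLH101, and PYE lay 0.408 from it, with 490 genes nearer.

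The genes nearest to PYE were the xylan synthesis gene IRX15 (0.025), the sugar transporter gene SWEET10 (0.036), the thionin gene THI2.2 (0.038), the clock gene TIC (0.039) and SDT, an acyltransferase gene of spermidine conjugates (0.047). Their mean levels lay at the 30.3rd, 31.5th, 93.7th, 88.0th and 6.1st percentiles of probe sets, in that order, so SDT was among the dimmest. Like that of PYE, their profiles have little step between the groups, which the choice by likeness fixes. The median gene lay 0.195 from PYE. The profiles share the same 6 arrays, so likeness includes whatever made an array high or low for many genes. Without 1 array, 2 to 4 of the 5 nearest to BHLH101 and 1 to 4 of the 5 nearest to PYE stayed among the nearest.

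**Figure D4:**
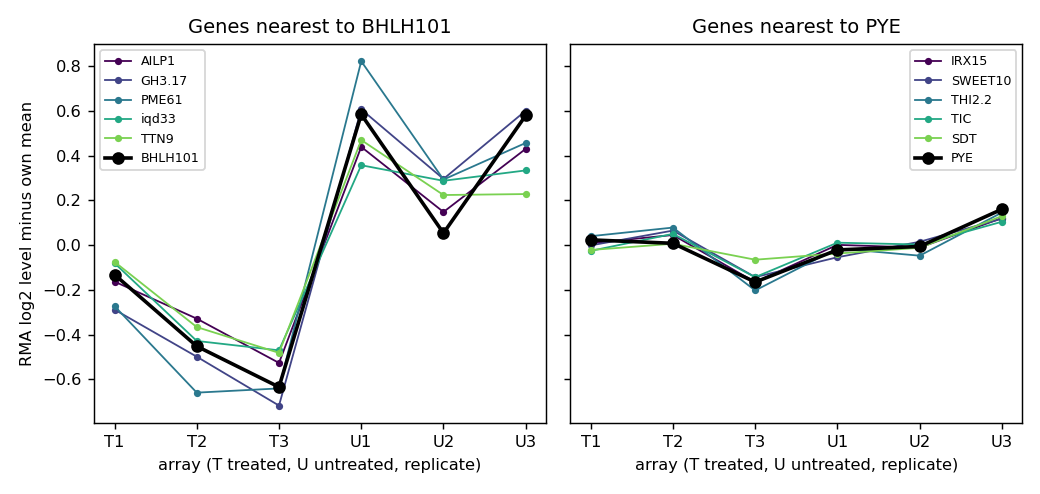
RMA log2 level minus each gene's own mean over 6 arrays (vertical axis) on the treated (T1 to T3) and untreated (U1 to U3) arrays, for BHLH101 and PYE (black) and the 5 genes nearest to each (coloured). The profiles near BHLH101 all step between the groups, and those near PYE stay flat apart from replicate 3.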

How the data were processed

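Transcripts of cat2-2 rosettes were measured on 6 ATH1 arrays. The deposited log2 levels, 1 per probe set, come from RMA, which the submitters' processing notes name as the authors' method; its version, and whether other arrays were normalized with these, are not given in the sources used here. Titles gave the groups, and p-values measure the spread between the labelled replicates. No filter on low values was set, and 22746 of 22810 probe sets were tested, the other 64 being Affymetrix controls. Names came from the platform table, updated through RefSeq's TAIR10.1 gene table, used for names only: 13513 probe sets named 1 gene, 503 several, and 8730 were not listed. Where several probe sets named a gene, the brightest on average stood for it.

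Differences, treated minus untreated, were tested in R 4.3.3 with limma 3.58.1 (lmFit, then eBayes; two-sided; no covariates). P-values were adjusted across the whole table by Benjamini and Hochberg's method, and 0.05 was the threshold. Single values were tested with exact permutation tests over arrays (scipy 1.17.1). Precision is limited by the small number of arrays. The members and lists were chosen with earlier results of these data known. A list member counted where its locus carried an accepted symbol or synonym. Named are, per role, up to 4 members with the smallest adjusted p, the 3 largest called changes of bHLH genes each way, and the 5 nearest genes with a symbol; called locus tags were named after their values were seen. Of the steps, only the main limma fit was tested on simulated data. Replicate numbers were not used to pair the arrays in the main fit. Alternatives were the replicate block, a filter on dim probe sets, 5 scalings, other moderation, array weights, a stricter threshold, membership by locus and leaving out each array.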

Additional observations from a re-analysis of the deposited data

How the results depend on the processing

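BHLH101 was called lower in 15 of 16 alternatives, at log2 -0.99 to -0.70 with 1 array left out and -0.81 to -0.66 otherwise. Without moderation the difference of -0.81 had adjusted p = 0.0662 (range over all alternatives 1.31e-05 to 0.0662, limma). The lowest of these came from anchoring on the hybridization controls, where the difference was smaller, at -0.71, so it does not mark a larger change. PYE passed in none of 16 (limma, adjusted p = 0.387 to 0.939), and its difference turned to 0.063 when anchored on the brighter poly(A) spikes and to 0.016 on the hybridization controls. With 1 array left out PYE ranged from -0.12 to -0.03. The change of BHLH101 minus that of PYE was -0.74 after repeated quantile normalization, the same as deposited under the shifts of whole arrays, and -0.87 to -0.60 with 1 array left out (exact permutation p = 0.20, the smallest then possible). NAI1, near 0 as deposited, turned to 0.061 on all 24 poly(A) spikes, 0.019 at equal medians, 0.14 on the brighter spikes, 0.097 on the hybridization controls, 0.040 after quantile normalization, and -0.079 to 0.050 with 1 array left out.

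Of the 11 iron genes, 7 as deposited, 4 were called with the replicate block and 3 at an adjusted p of 0.01 (3 to 5 with 1 array left out). Over all 22746 probe sets, 9479 were called as deposited, 9190 with the block and 7436 without moderation. With 1 array left out, 8408 to 8913 were called, and the count over all probe sets at 0.01 was not taken. Higher calls, 5 as deposited, were 8 on the brighter spikes, 3 without moderation, 3 with the block, 2 at 0.01 and 2 to 4 with 1 array left out. Lower calls, 2 as deposited, were 1 on all poly(A) spikes, the brighter spikes, the hybridization controls, at equal medians, with the block and at 0.01, 1 to 2 with 1 array left out, and 4 of 23 by locus alone. Of the 6 bHLH genes, 4 as deposited, 2 were called on all poly(A) spikes, with the block and at 0.01 (2 to 3 with 1 array left out). Higher were 4 on the brighter spikes, and 1 with the block and at 0.01 (1 to 2 with 1 array left out). Lower were 1 at equal medians, with the block and at 0.01 (1 to 2 with 1 array left out). There was also 1 without the dimmest 40% of probe sets, a filter that removes AT1G22490. Anchored on all poly(A) spikes, the brighter spikes or the hybridization controls, limma called 0 bHLH genes lower, with 1, 0 and 0 at an unadjusted p under 0.05. Over all probe sets, 3939, 3323 and 3185 were called lower in these settings, against 5059 as deposited. Anchoring takes the same amount off every difference: -0.07 on all poly(A) spikes, -0.15 on the brighter spikes and -0.11 on the hybridization controls. Anything further behind these moves was not tested. Pairing by replicate number was checked through deviations from the group means: same-numbered arrays correlated at 0.07, -0.06 and 0.00077, and the block called 9190 probe sets against 9479. No shift shared by same-numbered arrays thus showed over all probe sets, but this cannot show whether such replicates were grown or harvested together. With the block, BHLH101 had adjusted p = 0.000786 and PYE 0.536 (limma). The likeness alternatives were chosen after the data were seen. Neither gene had a second probe set, so that alternative gave no value.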
